A study of Mus musculus with 12 samples.

Results

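The EGF receptor, its relatives, their ligands, the sheddase that frees those ligands and the receptor's feedback inhibitor were examined in the established mouse macrophage line RAW264.7. The members were 10 genes, chosen by name: the receptors Egfr, Erbb2 and Erbb3, the ligands Hbegf, Areg and Ereg, the feedback inhibitor Errfi1, the sheddase Adam17, and its cofactors Rhbdf1 and Rhbdf2. Every probe carrying 1 of these symbols in the platform's annotation was taken, which gave 11 probes for 7 of the genes, out of 16590 genes and 25697 probes on the array. Erbb2, Erbb3 and Areg had no probe under their symbols and are not analysed here.

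Transcripts were profiled on 12 bead arrays (Illumina), in 4 groups of 3 biological replicates. The groups were untreated cells, cells given gefitinib alone (10 µM, added 1 h before the time of stimulation), cells given CpG alone (10 µg/ml for 6 h), and cells given gefitinib for 1 h followed by CpG for 6 h at those concentrations. CpG oligonucleotides mimic bacterial DNA and activate macrophages, and gefitinib blocks the tyrosine kinase of the EGF receptor. All groups were the same line in serum-containing medium, and the labels name no vehicle control and no incubation time for cells without CpG, which limits what the untreated and gefitinib groups stand for.

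EGF family ligands are made as precursors anchored in the cell membrane, and they reach receptors once a protease, often ADAM17, cuts them loose. ADAM17 also releases tumour necrosis factor from macrophages, and it needs an inactive rhomboid protein, iRhom1 (encoded by Rhbdf1) or iRhom2 (encoded by Rhbdf2), to mature and reach the surface. iRhom2 is the form on which macrophages mainly rely. Errfi1 encodes MIG6, a protein induced by receptor signalling that binds the EGF receptor's kinase domain and shuts it down.

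Between 41.7% and 43.5% of probes were detected per array, detection being a detection p under 0.05 against negative controls. Of 10 macrophage markers 8 had probes, and 6 of these (Adgre1, Lyz2, Ptprc, Spi1, Cd14 and Tyrobp) were detected on all 12 arrays. Itgam was detected on at most 3 arrays and Fcer1g on 0. Of 7 fibroblast and 5 lymphocyte markers with probes, 0 were detected, and of 7 epithelial markers 6 were never detected, the exception being Cdh1 (11 arrays). Of 4 granulocyte markers with probes, S100a8 was detected on all 12 arrays, with signals from 1215 to 2430 under CpG alone and from 174 to 389.7 elsewhere. Elane was detected on 2 arrays, and Mpo and S100a9 on 0. The summed signal of the 6 granulocyte probes was therefore 1797 to 3058 under CpG alone and 699 to 992 in the other groups. S100a8 moved with the changes under CpG described here, and its part in them was not tested. The 13 macrophage probes summed to 48481 to 61763 under CpG alone, 35522 to 46082 in untreated cells, 27174 to 37646 with gefitinib and 28714 to 33369 with both agents. Both sums are of deposited signals, not normalized between arrays. Of the 8 macrophage markers with probes, 4 rose with CpG and 0 fell by their brightest tested probe (limma adjusted p under 0.05). Of all tested probes 9.67% rose and 12.5% fell. Mean signals over all probes were 392.1 to 449.6 in untreated cells and 317.7 to 437.3 with gefitinib. With CpG they were 360 to 464.2, and with both agents 356.5 to 397.1.

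The receptor and ligand probes were detected on no array, while the sheddase, its cofactors and the feedback inhibitor were detected on all 12. Errfi1, Rhbdf2 and Adam17 rose with CpG alone, and all 4 detected members were lower when gefitinib had been given before CpG, Rhbdf1 only narrowly so. In cells given both agents the 4 members lay close to or below their untreated levels, and none of them passed the test against untreated cells.

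To show the start regions of the members that changed, windows of 300 bases (250 before and 50 after an annotated start) are printed from RefSeq's annotation on GRCm38.p6, 5′ to 3′ on the gene's strand. Of the 10 members, 5 had a window there (Errfi1 with 2), and those of Errfi1 and Adam17 are given. Rhbdf2, which also changed, and Rhbdf1 had 0 windows there. Capitals mark matches to any of 6 motifs searched on both strands: the cAMP response element TGACGTCA, the AP-1 site TGANTCA, the TATA box TATAAA, the EGR1 site GCGTGGGCG, the NF-kB site and the CArG box, of which none overlapped another here.
Errfi1, upstream start, chr4:150853546-150853845, plus strand: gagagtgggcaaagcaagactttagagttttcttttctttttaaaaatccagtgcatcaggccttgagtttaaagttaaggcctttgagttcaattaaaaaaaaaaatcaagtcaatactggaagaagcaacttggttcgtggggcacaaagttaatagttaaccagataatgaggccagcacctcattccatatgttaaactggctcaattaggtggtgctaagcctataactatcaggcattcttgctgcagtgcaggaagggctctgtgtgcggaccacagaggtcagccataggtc
Errfi1, downstream start, chr4:150854820-150855119, plus strand: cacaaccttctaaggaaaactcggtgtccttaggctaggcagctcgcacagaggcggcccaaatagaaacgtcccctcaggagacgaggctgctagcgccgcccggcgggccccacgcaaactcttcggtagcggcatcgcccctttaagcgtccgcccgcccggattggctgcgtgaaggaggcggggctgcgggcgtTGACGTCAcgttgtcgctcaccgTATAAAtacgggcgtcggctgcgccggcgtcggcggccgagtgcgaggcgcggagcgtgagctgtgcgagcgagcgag
Adam17, chr12:21373583-21373882, minus strand: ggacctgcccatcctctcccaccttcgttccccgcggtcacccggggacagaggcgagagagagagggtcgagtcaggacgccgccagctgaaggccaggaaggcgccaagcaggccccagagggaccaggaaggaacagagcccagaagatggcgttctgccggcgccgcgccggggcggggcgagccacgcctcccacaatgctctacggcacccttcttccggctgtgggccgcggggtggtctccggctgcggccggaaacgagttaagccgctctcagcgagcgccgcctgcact
The downstream Errfi1 window held a cAMP response element from base -51 to -44 and a TATA box from base -28 to -23, counted from the start. Of 32841 such windows in the annotation, 1.79% held that element and 13.6% a TATA box, anywhere in the window and on either strand. On the gene's own strand and at a like distance before the start, fewer windows held a TATA box. These were 332 of 16557 windows of plus-strand genes and 323 of 16284 of minus-strand genes. AP-1 sites were in 7.81% of windows, EGR1 sites in 0.612%, NF-kB sites in 8.46% and CArG boxes in 1.63%. The upstream Errfi1 window (42.0% G or C) and the Adam17 window (70%) held 0 of the 6 motifs, which says only that these letters are not there. The arrays do not tell which Errfi1 start was used.

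Egfr, the receptor that gefitinib targets, was represented by 4 probes, a pair for each of 2 RefSeq transcripts. Their deposited signals were 93.99 to 121.8, 94.83 to 117, 106.8 to 129.1 and 100.1 to 121.8 over the 12 arrays. Their lowest detection p-values were 0.303, 0.469, 0.112 and 0.188, so that no array of any group passed 0.05. For the third probe the normalized log2 values of the 3 gefitinib arrays were the 3 highest of the 12 (4.71 ± 0.01, against 4.51 ± 0.07 untreated, 4.48 ± 0.04 with CpG and 4.57 ± 0.10 with both agents, mean ± SD, n = 3 arrays). These levels lie among those of the negative controls, and the other probe of the same transcript overlapped between groups. None of the 4 probes was tested.

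Hbegf encodes heparin-binding EGF-like growth factor, a ligand of the EGF receptor that macrophages are known to make. Its probe came nearest to detection among the probes that were never detected. Its signals were 136.7, 120.7 and 108.5 in untreated cells, 125.4, 100.4 and 101.8 with gefitinib, 138, 118.5 and 112.1 with CpG, and 124.5, 124.3 and 111.5 with both agents. The lowest detection p was 0.0514, in CpG replicate 1, and the next was 0.0614, in untreated replicate 1. The groups overlapped, and no test was made, since detection on at least 3 arrays was required.

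Ereg encodes epiregulin, another EGF receptor ligand. Its 2 probes gave signals of 91.21 to 121.7 and 101 to 118.1, with lowest detection p-values of 0.199 and 0.102. Over the 7 undetected member probes, signals ran from 91.21 to 138, and normalized log2 values from 4.21 to 4.92. An undetected probe gives only an upper bound on the transcript, and a probe that hybridises poorly would read the same.

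**Figure D1:**
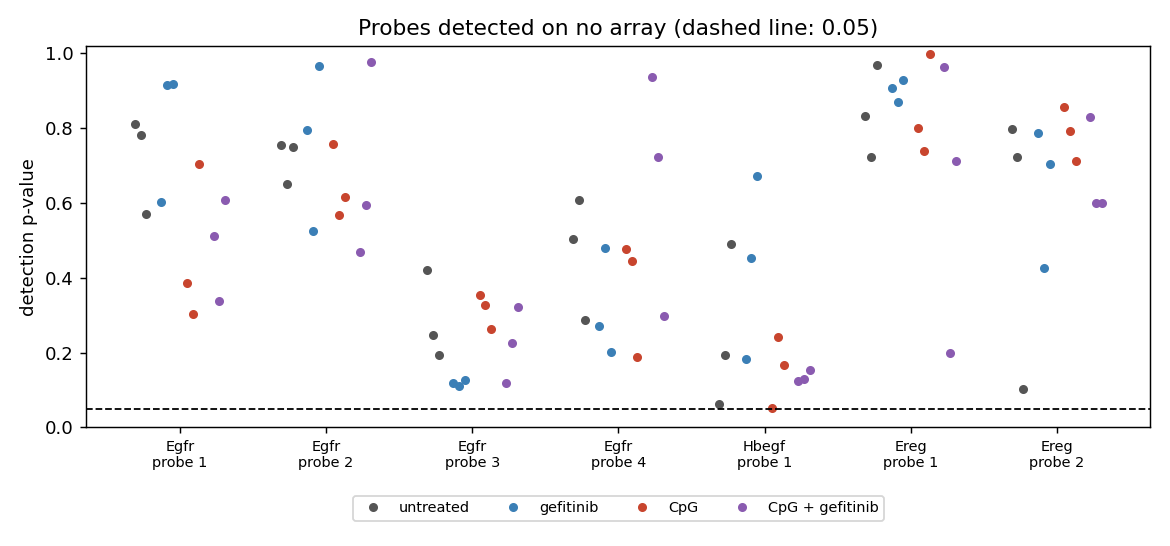
Detection p-value (y axis, 0 to 1) of each of the 7 undetected member probes on the 12 arrays, coloured by group, with a dashed line at 0.05. All points lie above the line, and the lowest is Hbegf in CpG replicate 1 at 0.0514.

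Other ligands of the family were mostly undetected too. Of 9 further family genes listed, the receptor Erbb4 and the ligand Nrg2 had no probe and are not analysed here. The other 7, all ligands (Egf, Tgfa, Btc, Epgn and the neuregulin genes Nrg1, Nrg3 and Nrg4), had a probe, and 6 of these were detected on 0 arrays. The exception was Tgfa, the transforming growth factor alpha gene, with detection on 1 array, an untreated one, at a detection p of 0.0213. None of the 7 could be tested.

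Errfi1, the feedback inhibitor, had the widest change of the members under CpG. Its deposited signals were 306.7, 284.7 and 275.1 in untreated cells, 318.7, 259.5 and 200.6 with gefitinib, 878, 602.8 and 596.9 with CpG, and 283.6, 279.1 and 256 with both agents. The 3 CpG arrays stood above the other 9, which overlapped. After background correction and quantile normalization between arrays, its log2 level was 7.52 ± 0.08 in untreated cells (mean ± SD, n = 3 arrays, as for all group levels here), 7.34 ± 0.19 with gefitinib, 9.22 ± 0.13 with CpG and 7.47 ± 0.05 with both. CpG alone raised Errfi1 by 1.70 ± 0.12 log2 units (± SE, as for all differences here; 3.25-fold, limma adjusted p = 1.69e-07). Gefitinib before CpG lowered it against CpG alone by a difference of -1.75 ± 0.12 (adjusted p = 1.07e-07).

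Adam17, the sheddase gene, moved the same way by less. Its signals were 1278, 928.4 and 944.5 in untreated cells, 1103, 823.6 and 703.2 with gefitinib, 1457, 1317 and 1315 with CpG, and 964, 779.4 and 876.9 with both agents. Each CpG array was above each of the other 9, although untreated replicate 1 came close. The log2 level was 9.79 ± 0.13, 9.66 ± 0.03, 10.29 ± 0.15 and 9.64 ± 0.15 in the same order of groups. Adam17 rose by 0.49 ± 0.12 with CpG (1.41-fold, adjusted p = 0.00869), a call that median scaling ended (0.45, adjusted p = 0.102). It was lower by 1.57-fold with both agents than with CpG (-0.65 ± 0.12, adjusted p = 0.00093).

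Rhbdf2, which encodes the iRhom2 cofactor of ADAM17, was dim but detected throughout. Its signals were 156, 147.5 and 132.4 in untreated cells, 151, 130.1 and 129.8 with gefitinib, 194.7, 180 and 151 with CpG, and 135.5, 133.9 and 121.6 with both agents. As deposited, the CpG and untreated arrays overlapped, and after normalization they did not. The median signal over all probes was 112.9 on CpG replicate 3 and 130.8 on untreated replicate 1. The detection p was at most 0.00376 on the arrays of the first 3 groups and 0.0201 to 0.0301 on the 3 arrays given both agents. The log2 level was 5.47 ± 0.11 in untreated cells, 5.48 ± 0.12 with gefitinib, 6.31 ± 0.11 with CpG and 5.08 ± 0.02 with both.

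Rhbdf2 rose by 0.84 ± 0.11 with CpG (1.79-fold, adjusted p = 7.45e-05) and was lower by 2.34-fold with both agents than with CpG (-1.23 ± 0.11, adjusted p = 1.51e-06). The size of both differences rests on the background correction, and without it they were 0.32 (adjusted p = 0.000626) and -0.43 (adjusted p = 2.59e-05). The 3 arrays given both agents were also the lowest 3 of the 12 after normalization. The difference from untreated cells was -0.39 ± 0.11 (95% interval -0.62 to -0.16, unadjusted p = 0.00305) and did not pass the threshold (adjusted p = 0.0707). Against gefitinib alone it was -0.40 ± 0.11 (95% interval -0.64 to -0.17, unadjusted p = 0.00244, adjusted p = 1). As deposited, the arrays given both agents overlapped the untreated arrays and the gefitinib arrays. Without background correction the difference was -0.11 from untreated cells (adjusted p = 0.29) and -0.12 from gefitinib alone, so these sizes also rest on that correction.

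Rhbdf1, which encodes the iRhom1 cofactor, varied most within a group. Its signals were 248.7, 204.2 and 188.7 in untreated cells, 260.9, 190.6 and 181.9 with gefitinib, 317.3, 195.6 and 260.5 with CpG, and 218.9, 196.1 and 191.6 with both agents. CpG replicate 2 lay among the arrays of the other groups, while the other CpG arrays were above all of them after normalization, at 7.5 and 7.71 against 6.68. The log2 level was 6.77 ± 0.16, 6.86 ± 0.09, 7.30 ± 0.55 and 6.73 ± 0.14 in the order of groups used above.

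The difference of Rhbdf1 between CpG and untreated cells, 0.53 ± 0.21, did not pass the threshold (95% interval 0.08 to 0.98, adjusted p = 0.0889). It depended on single CpG arrays, at 0.84 without CpG replicate 2 (adjusted p = 0.000773) and 0.32 without CpG replicate 3 (adjusted p = 0.302). Without background correction it was 0.32 (adjusted p = 0.0642). With both agents against CpG it was -0.57 ± 0.21, just past the threshold (adjusted p = 0.0488), and the call was lost without any 1 of the other 11 arrays (adjusted p 0.0532 to 0.189), whereas without CpG replicate 2 the difference was -0.88 (adjusted p = 0.000378). Without CpG replicate 3 it was -0.36 (adjusted p = 0.189), and without background correction the difference was -0.34 (adjusted p = 0.0349). The call was also lost with median scaling (adjusted p = 0.0956), without the detection filter (adjusted p = 0.11) and in a fit of the compared groups only (adjusted p = 0.109).

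**Figure D2:**
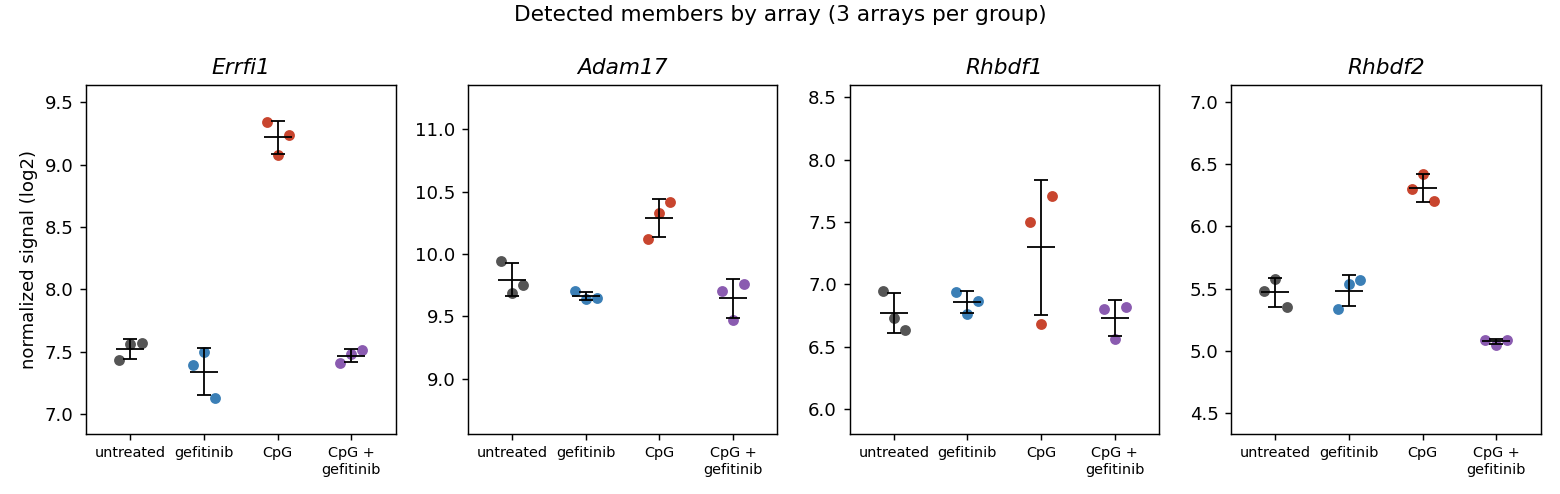
Normalized log2 signal (y axis, the same span in each panel) of the 4 detected members on the 12 arrays, with points for arrays, and a horizontal line and bars for the mean ± SD of the 3 arrays in a group. CpG arrays stand apart for Errfi1, Adam17 and Rhbdf2, CpG replicate 2 of Rhbdf1 lies at 6.68 among the other groups, and Rhbdf2 is lowest with both agents.

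Set against all probes, 3 of the 4 tested members rose with CpG alone, where 9.67% of the 11977 tested probes rose, 12.5% fell and 22.2% changed in either direction. The groups did not overlap for 3 of 4, against 34.4% of all tested probes. The median difference was 0.68 over the 4 members and -0.05 over all probes. All 4 tested members were detected on all 12 arrays, so none entered the test through 1 bright group. Members and related lists were chosen with earlier results of these data known, so counts set beside these shares are description only.

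In cells given both agents, compared with CpG alone, 4 of 4 members were lower, where 14.7% of all tested probes were lower, 19.1% higher and 33.8% different in either direction. Groups did not overlap for 3 of 4 members, against 44.6% of all probes, and the median difference was -0.94 over members and 0.04 over all probes. This comparison shares the 3 CpG arrays with that of CpG against untreated cells, so high CpG arrays move both.

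Gefitinib alone changed 0 of the 4 members in limma's test (0 also at an unadjusted p under 0.05), where 6.45% of all tested probes changed (4.04% higher and 2.4% lower). The differences from untreated cells were -0.18 ± 0.12 for Errfi1 (95% interval -0.43 to 0.07), -0.13 ± 0.12 for Adam17 (-0.39 to 0.12), 0.09 ± 0.21 for Rhbdf1 (-0.36 to 0.53) and 0.01 ± 0.11 for Rhbdf2 (-0.22 to 0.25). Groups overlapped for every one of them, while 29.7% of all tested probes had groups that did not overlap. These intervals leave room for changes up to about the size of the Adam17 rise with CpG.

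With gefitinib present, CpG called 0 members and 0% of the 11977 probes in limma's test against gefitinib alone, with 382 probes (3.19%) at an unadjusted p under 0.05. Of the 4 members only Rhbdf2 was among these 382, and it was the 1 member whose groups did not overlap after normalization, against 9.94% of all probes. The other differences were 0.13 ± 0.12 for Errfi1 (95% interval -0.13 to 0.38), -0.02 ± 0.12 for Adam17 (-0.28 to 0.24) and -0.13 ± 0.21 for Rhbdf1 (-0.58 to 0.32). For Errfi1 the upper end of that interval lies below the lower end without gefitinib (1.45).

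Against untreated cells, cells given both agents differed in 0 of the 4 members by limma (1, Rhbdf2, at an unadjusted p under 0.05), where 3.01% of all tested probes differed (1.95% higher and 1.06% lower). Groups did not overlap after normalization for 1 of 4, Rhbdf2, against 24.7% of all probes. Errfi1 differed by -0.05 ± 0.12 (95% interval -0.31 to 0.20), Adam17 by -0.15 ± 0.12 (-0.41 to 0.10) and Rhbdf1 by -0.04 ± 0.21 (-0.49 to 0.40). In bulk RNA, fewer cells carrying a transcript and less of it per cell cannot be told apart.

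Whether the CpG effect itself differed with gefitinib was tested as the interaction, the CpG effect with gefitinib minus that without it. It passed for 2 of 4 members, both downward, where 5.5% of all tested probes passed downward, 4.89% upward and 10.4% in either direction. The interaction was -1.57 ± 0.17 for Errfi1 (adjusted p = 2.53e-05) and -1.24 ± 0.15 for Rhbdf2 (adjusted p = 0.000102), the latter -0.44 without background correction (adjusted p = 0.00163). For Adam17 it was -0.52 ± 0.17 and missed the threshold (adjusted p = 0.0732), though it passed under 5 of 10 alternative settings. For Rhbdf1 it was -0.66 ± 0.29 (adjusted p = 0.201), with -0.97 without CpG replicate 2 (adjusted p = 0.00405), -0.45 without CpG replicate 3 (adjusted p = 0.354) and -0.39 without background correction (adjusted p = 0.169).

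**Figure D3:**
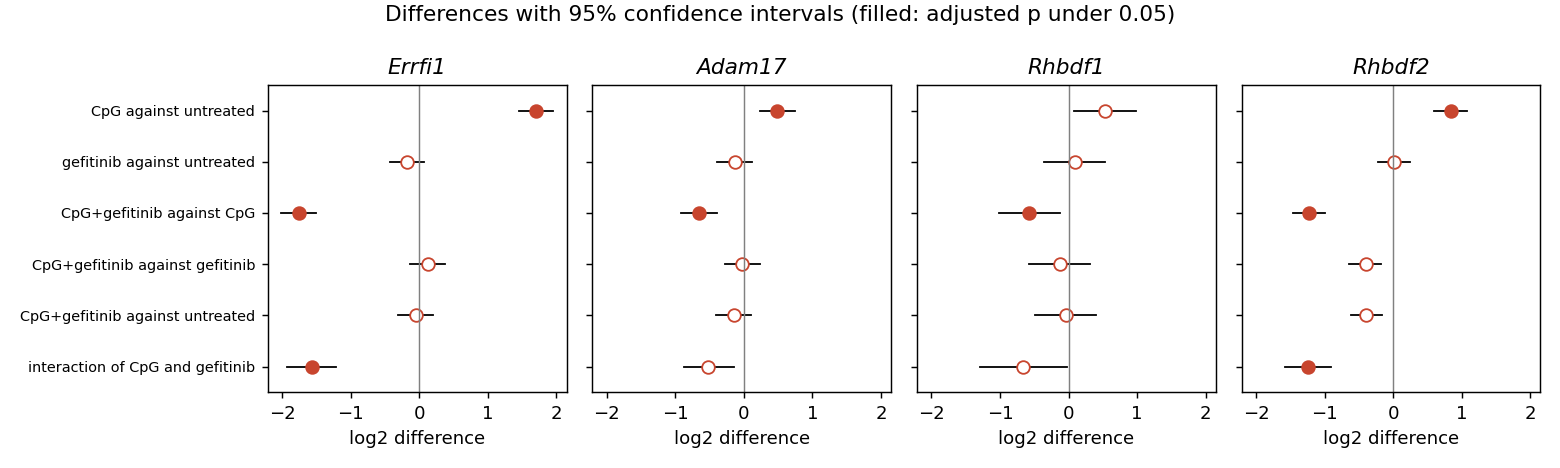
Log2 difference (x axis) of each detected member in the 5 comparisons and the interaction, with bars for 95% confidence intervals and filled points where the adjusted p was under 0.05. Errfi1 and Rhbdf2 are filled in 3 rows each, Adam17 in 2 and Rhbdf1 in 1.

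Related genes were counted by role, each gene by its brightest tested probe. The shares set beside these counts are by probe, over all tested probes. They were 9.67% higher and 12.5% lower with CpG, and 19.1% higher and 14.7% lower with both agents against CpG. In a fit of the brightest probe per gene, 813 of 8101 genes were higher and 1241 lower with CpG. In that fit 1786 were higher and 1233 lower with both agents against CpG. Of 14 other sheddases, sheddase inhibitors and partners of iRhoms or ADAM17, all had probes, 5 were never detected and 7 were tested. With CpG 2 of these 7 rose, and with both agents against CpG 3 were lower and 0 higher (median 0.00). Of the 3, Adam15, named after its value was seen, passed narrowly (-0.52 ± 0.19, adjusted p = 0.0495), and its other tested probe did not pass. Furin, the protease that removes the inhibitory prodomain of ADAM17, rose by 1.07 ± 0.13 with CpG (adjusted p = 4.29e-05) and was lower with both agents by a difference of -1.16 ± 0.13 (adjusted p = 1.54e-05). Adam8, a leukocyte metalloproteinase gene, gave 0.96 ± 0.16 (adjusted p = 0.000639) and -1.14 ± 0.16 (adjusted p = 0.000103). Timp3, which encodes the tissue inhibitor of ADAM17, was detected on 0 arrays by its 2 probes. Frmd8, which encodes a partner of the iRhoms at the cell surface, differed by 0.09 ± 0.17 with both agents against CpG (adjusted p = 0.727).

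Of 12 listed substrates of ADAM17 in myeloid cells, 10 had probes, 4 were never detected and 5 were tested. With CpG 4 of the 5 rose and 1 fell, the last being Il6ra, the interleukin-6 receptor gene, named after its value was seen (-0.77 ± 0.24, adjusted p = 0.0319, detected on 2 of the 3 CpG arrays). With both agents against CpG 4 were lower and 0 higher (median -0.94). Tnf, the best known cargo of the sheddase in macrophages, was higher by 4.17 ± 0.15 with CpG (adjusted p = 1.82e-10) and differed by -4.36 ± 0.15 with both agents against CpG (adjusted p = 1.23e-10). Tnf also fell with gefitinib alone, by a difference of -0.61 ± 0.15 (adjusted p = 0.0275). Tnfrsf1b, the gene of the shed TNF receptor 2, was detected on the 3 CpG arrays and on 0 others, and so entered the test through those arrays alone. Tnfrsf1b is among the 4 risers and the 4 lower genes counted above. Its level with CpG was at least 2.71-fold higher than untreated, and with both agents at least 2.73-fold lower than with CpG. No p-value is given here, since the arrays that brought the probe into the test are among those compared. These folds are bounds, because the undetected side was put at the lowest signal detected on each of its arrays, or at the probe's own value where that was higher.

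Of 29 genes listed as carrying the signal from ErbB receptors to ERK, PI3 kinase and STAT proteins, 22 had probes, 5 were never detected and 17 were tested. With CpG 2 rose and 1 fell, and with both agents against CpG 2 were higher and 4 lower (median -0.01), against 22.2% and 33.8% of all tested probes called in either direction. Gab2, an adaptor gene named after its values were seen, is 1 of the risers and 1 of the 4 lower genes, and it was detected on all 3 CpG arrays, 2 gefitinib arrays and 0 of the others, so that its CpG arrays carried it into the test. Gab2 was also higher with gefitinib alone than in untreated cells (0.52 ± 0.11, adjusted p = 0.0189). With the undetected untreated arrays put at their detection limit, that rise was at least 1.07-fold. Map2k1, which encodes the ERK kinase MEK1, differed by -1.22 ± 0.37 with both agents against CpG (adjusted p = 0.0215), and Pik3r1, the regulatory subunit gene of PI3 kinase, by 0.69 ± 0.22 (adjusted p = 0.0245), although its other tested probe did not pass. In CpG against untreated cells neither passed (0.74 ± 0.37, adjusted p = 0.181, and -0.50 ± 0.22, adjusted p = 0.124).

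Feedback genes of receptor tyrosine kinases went both ways. Of 20 listed, 18 had probes, 5 were never detected and 11 were tested. With CpG 3 rose and 2 fell, and with both agents against CpG 2 were higher and 3 lower (median -0.08). These counts include Cbl, a ubiquitin ligase gene named after its values were seen, which was detected on all 3 CpG arrays, 1 untreated array and 0 of the others, and so also entered the test through its CpG arrays. Dusp4, an ERK phosphatase gene, rose by 2.13 ± 0.14 with CpG (adjusted p = 1.07e-07) and differed by -2.20 ± 0.14 with both agents against CpG (adjusted p = 6.85e-08), a direction shared with Errfi1. Lrig3, a relative of the receptor's inhibitor LRIG1, went the other way, at -0.80 ± 0.16 (adjusted p = 0.00247) and 1.13 ± 0.16 (adjusted p = 0.000105). Lrig1 itself was detected on 0 arrays.

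**Figure D4:**
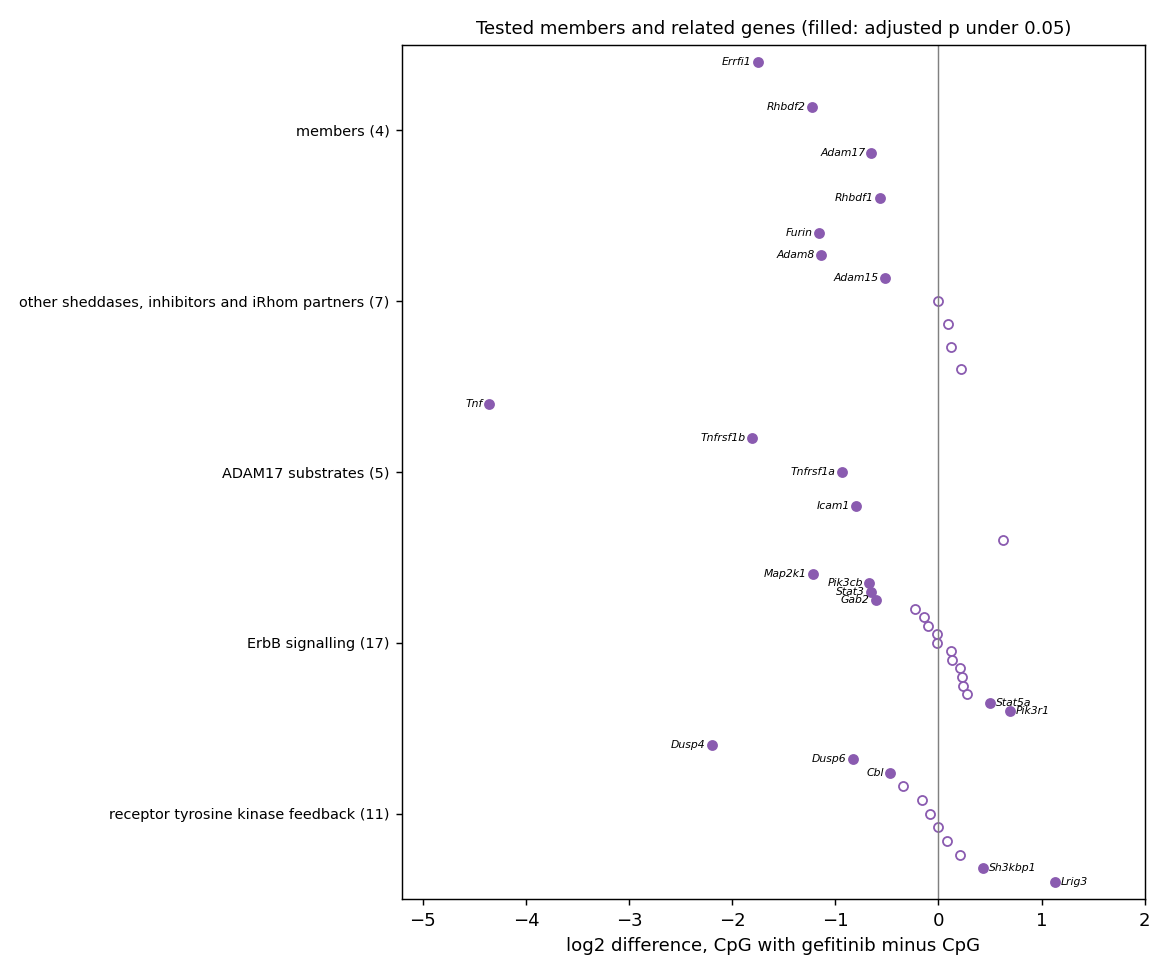
Log2 difference between CpG with gefitinib and CpG alone (x axis) for the 4 tested members and the tested related genes in 4 role groups, filled and named where the adjusted p was under 0.05. The other ErbB receptors and ligands are not drawn, because 0 were tested. All 4 members lie below 0, and Tnf lies farthest to the left at -4.36.

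The genes nearest to each member in pattern were found by the root mean square difference of log2 values over the 12 arrays, after each probe's own mean was taken off, among 8100 other genes. For Errfi1 they were Gadd45b, a stress response gene (0.093 log2 units), Trim21, an antibody receptor and ubiquitin ligase gene (0.105), and Tnfrsf1b (0.127). The Tnfrsf1b distance rests on a probe detected on 3 of the 12 arrays, while the other genes named here were detected on all 12. For Rhbdf2 they were Brd2, a chromatin reader gene (0.138), Cd14, the lipopolysaccharide co-receptor gene (0.141), and Samhd1, a nucleotide hydrolase gene (0.161). For Adam17 they were Ube2f (0.1), the lipid droplet gene Plin2 (0.108) and Sap30 (0.109), and for Rhbdf1 Trps1 (0.145), Map11 (0.16) and Celf1 (0.162). The members' own spread by the same measure was 0.779 for Errfi1, 0.455 for Rhbdf2, 0.282 for Adam17 and 0.332 for Rhbdf1. All of these values come from the same 12 arrays, and for genes that vary little, small distances are easily met.

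**Figure D5:**
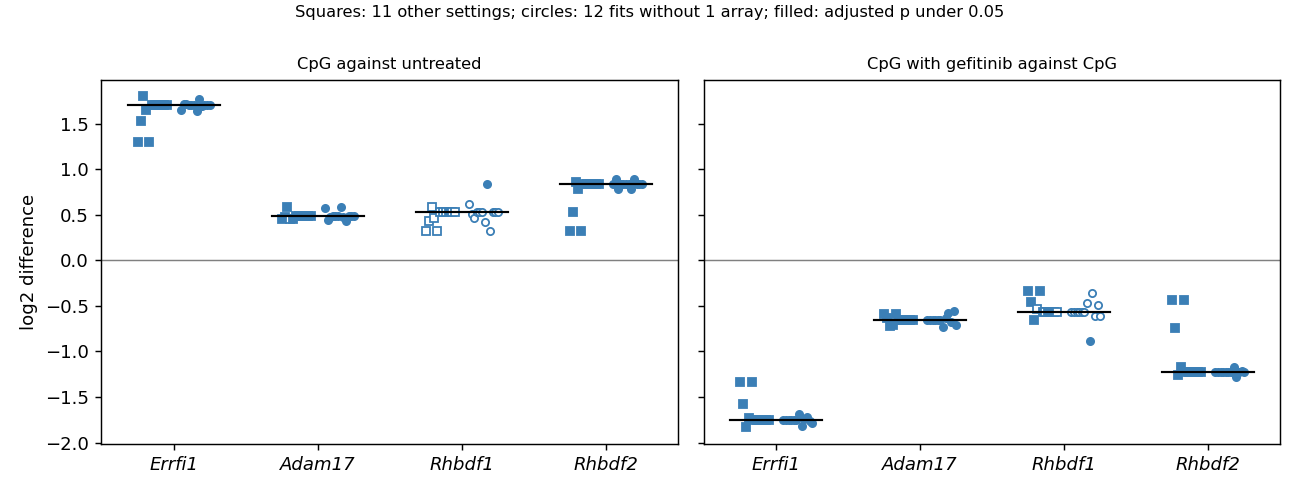
Log2 difference (y axis) of each detected member in CpG against untreated cells and in CpG with gefitinib against CpG, as reported (line), under 11 other settings (squares) and without each of the 12 arrays in turn (circles), filled where the adjusted p was under 0.05. No value crosses 0, Rhbdf2 spans 0.32 to 0.89 and -1.28 to -0.43, and most Rhbdf1 points are open.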

How the data were processed

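Per the submitters' processing notes, the software was GenomeStudio 2010.2. The deposited signals are linear bead intensity readings for 25697 probes per array, not normalized between arrays, and the file headers pair every deposited intensity with a detection p-value. A further table from the authors gives these intensity readings quantile normalized, as its shared quantiles show. How the background was treated upstream is not given in the sources used here.

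Normalization used the neqc function of limma 3.58.1 under R 4.3.3, which corrects background by normexp with negative control moments inferred from the detection p-values, adds an offset of 16, quantile normalizes and takes log2. Testing was limited to the 11977 probes detected (p under 0.05) on 3 or more of the 12 arrays. The model had 1 mean per group over all 12 arrays, with lmFit and eBayes (residual degrees of freedom 8, prior 5.28). Benjamini-Hochberg adjustment ran over every tested probe, with a threshold of 0.05, and the code was tested on simulated data. Related genes were read from their brightest tested probe.

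All 10 members are described. In each of 5 related lists the 2 largest changes past the threshold in CpG with gefitinib against CpG are named, and for members past it the 3 genes of most like pattern. Adam15, Frmd8, Timp3, Lrig1, Il6ra, Gab2 and Cbl were named from the lists outside that rule, after their values were seen. Members and lists were chosen with earlier results of these data known. In the annotation 23978 probes had 1 symbol, 0 had several and 1719 were unlisted. Alternatives covered background, scaling, filter, spread, replicate block and each array left out. Slide and scan are not given in the sources used here. Precision is limited by the number of arrays: the median standard error of a difference over all tested probes was 0.15.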

Additional observations from a re-analysis of the deposited data

Results flagged for a closer look

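The effect of CpG differed between cells with and without gefitinib for 2 members, by the interaction term of limma's fit. For Errfi1 it was 1.70 without gefitinib and 0.13 with it, a difference of -1.57 ± 0.17 log2 units (adjusted p = 2.53e-05). For Rhbdf2 it was 0.84 without gefitinib and -0.40 with it, a difference of -1.24 ± 0.15 (adjusted p = 0.000102). The -0.40 did not itself pass the threshold, and the arrays given both agents were close to the detection limit. Without background correction the -0.40 was -0.12, and the Rhbdf2 interaction was -0.44 (adjusted p = 0.00163).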

How the results depend on the processing

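Across 11 alternative settings and 12 fits that each left out 1 array, 525 of 548 refitted member differences stayed on the same side of the threshold, 15 lost their call and 8 gained one. Of called values 0 turned sign, and 9 uncalled ones did. Errfi1 and Rhbdf2 kept every call in all of these fits, while the cause of the changes for Adam17 and Rhbdf1 was not tested. Counts over all probes moved by over 1.5 times as follows, except that ranges with 1 array left out cover all 12 such fits. For gefitinib against untreated cells (772) they were 1221 without background correction, 1166 with offset 50, 174 with median scaling, 1221 from the authors' normalized values and 1205 with the replicate block, and 227 to 1037 with 1 array left out. For CpG with gefitinib against untreated cells (361) they were 632, 602, 86, 631 and 574 in the same order, 561 with a trend in the prior, 233 from the compared groups only, and 131 to 508 with 1 array left out. Median scaling gave 2675 for CpG with gefitinib against CpG (4051) and 702 for the interaction (1245), and it moved the share of higher calls in CpG with gefitinib against untreated cells from 64.8% to 81.4%. Cyclic loess turned the balance of higher and lower calls, from 43.6% to 51.9% higher for CpG against untreated cells and from 56.4% to 49.2% for CpG with gefitinib against CpG, and moved the interaction from 47.1% to 38.1%. Taking the brightest probe per gene turned the balance of the interaction instead, to 51.4% higher. CpG with gefitinib against gefitinib stayed at 0 in every fit. Same-numbered arrays of different groups deviated together in 12 of 18 pairs at a correlation over 0.1 (range -0.15 to 0.339), 10 of 12 arrays correlated best with their own number, and the labels state no pairing, so the replicate block is an alternative alone. With it the Rhbdf1 difference in CpG against untreated cells passed (0.53, adjusted p = 0.0494), and it changed no other member's call. At a detection p under 0.01, the same 4 members were detected on some array, but Rhbdf2 on 9 of 12, with 0 of the 3 arrays given both agents.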
